A study of Homo sapiens with 8 samples.

Results

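The human genes of voltage-gated and ligand-gated ion channels and of the main glutamate and GABA receptors were followed at chromatin bound by RBBP4 and by P300. RBBP4 is a histone-binding protein found in deacetylase, Polycomb and chromatin assembly complexes, and P300 is a histone acetyltransferase. Members were the protein-coding genes of RefSeq (GRCh38.p14) whose symbols begin with KCN, CACNA, CACNB, CACNG, SCN and a digit, GRIA, GRIK, GRID or GRIN and a digit, GABR or GABBR, GRM and a digit, or RYR and a digit. The rule gave 187 of 20033 protein-coding genes, and it also took in GRID2IP, a scaffold that binds a delta glutamate receptor. Of all deposited regions, those that overlapped a member gene or its 3000 bp flanks were 339 of 35154 for RBBP4, at 95 members, and 249 of 20496 for P300, at 78 members. Regions of both antibodies lay at 59 members, and 73 members had neither.

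The cells were NCI-H69, an established small cell lung cancer line. They received siRNA against CSNK2B, which encodes the beta subunit that regulates casein kinase 2, or non-targeting siRNA, and were fixed 48 h later with 1% formaldehyde for 10 min. Each antibody had 1 knockdown and 1 control immunoprecipitated library, each with an input library that was not used here, so the 8 libraries of the series hold no replicate and no difference between the arms has a replicate check. No test of knockdown against control was possible. The labels gave each antibody its own batch, so the antibodies cannot be told apart from their batches, and no fold was taken across antibodies. The loss of CSNK2B itself and the identity of the line could not be checked, because no RNA or protein was measured and a region table shows no cell markers. The arm of each column was taken from the column's name alone.

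Voltage-gated potassium channels end the action potential and set how often an excitable cell fires, voltage-gated sodium channels start it, and voltage-gated calcium channels couple it to secretion. Ryanodine receptors release calcium from the endoplasmic reticulum. Ionotropic glutamate receptors excite, GABA receptors mostly inhibit, and metabotropic glutamate receptors act through G proteins. Small cell lung cancer is a neuroendocrine tumour whose cells are known to be excitable and to use channels of these families. Many of these genes are long: the median span of members was 68692 bp, against 24130 bp for all protein-coding genes, and 81 of the 187 members were at least 100 kb long.

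The reads behind each region were recovered from the deposited RPKM values and the region widths. Reads in all tested regions, the total by which RPKM had been scaled, were inferred. For RBBP4 they were 1207945 after knockdown and 833181 in the control, and for P300 946392 after knockdown and 1092789 in the control. Folds below are knockdown over control reads after scaling to those totals, with an exact binomial 95% interval that covers counting error only. On the whole-library scale of the authors' log2 fold change, values differed from these folds by a median of 0.57 (log2) for RBBP4 and -0.43 for P300, taken over the 3077 and 60 listed regions with at least 10 reads in each library. Regions with fewer reads can differ otherwise. Every region in the deposited tables had an unadjusted p below 0.05, so regions with similar reads in both arms are not listed. That p compares 2 libraries and not 2 conditions. In all 339 RBBP4 and 249 P300 member regions the arm in whose library the peak had been called was also the higher arm. The same held for 35151 of the 35154 RBBP4 regions and all 20496 P300 regions of the series.

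The RBBP4 regions at member promoters carry the most uniform result, so 6 of the promoters they covered are shown first. A RefSeq transcription start and strand were given for 136 members, and the window from 250 bases before to 50 bases after the start overlapped a listed RBBP4 region at 10 of them, each with more reads after knockdown. Over all protein-coding genes with a given start, the window overlapped a listed RBBP4 region at 4099 of 15842, a larger share. The sequences are from RefSeq (GRCh38.p14), 5′ to 3′ on the strand of the gene. Capitals mark matches, on either strand, of the GC box GGGCGG, the CCAAT box, the partial cAMP response element TGACG and the NEUROD-type E-box CATCTG. Overlapping matches of 1 motif were kept. KCNK2 and KCNK1, the genes of the 2-pore-domain potassium channels TREK-1 and TWIK-1, lie at chr1:215005292-215005591 (plus strand) and chr1:233613856-233614155 (plus strand). KCNJ8, a pore subunit of ATP-sensitive potassium channels, lies at chr12:21774657-21774956 (minus strand). GABRB2, a beta subunit of the GABA-A receptor, lies at chr5:161546676-161546975 (minus strand). CACNA2D1, an auxiliary subunit of calcium channels and the target of gabapentin, lies at chr7:82443907-82444206 (minus strand). GRIA4, a subunit of the AMPA receptor, lies at chr11:105610456-105610755 (plus strand).
KCNK2: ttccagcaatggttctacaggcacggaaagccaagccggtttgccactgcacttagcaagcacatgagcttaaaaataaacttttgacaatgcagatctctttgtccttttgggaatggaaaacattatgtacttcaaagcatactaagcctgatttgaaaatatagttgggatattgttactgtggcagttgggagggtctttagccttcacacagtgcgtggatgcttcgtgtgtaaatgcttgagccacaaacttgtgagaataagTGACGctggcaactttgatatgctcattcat
KCNK1: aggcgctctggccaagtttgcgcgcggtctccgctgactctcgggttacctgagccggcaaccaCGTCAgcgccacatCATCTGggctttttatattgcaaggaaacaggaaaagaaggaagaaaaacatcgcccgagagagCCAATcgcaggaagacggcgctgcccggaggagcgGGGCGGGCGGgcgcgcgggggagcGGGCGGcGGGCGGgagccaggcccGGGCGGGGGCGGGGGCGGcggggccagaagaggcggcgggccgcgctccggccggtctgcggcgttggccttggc
KCNJ8: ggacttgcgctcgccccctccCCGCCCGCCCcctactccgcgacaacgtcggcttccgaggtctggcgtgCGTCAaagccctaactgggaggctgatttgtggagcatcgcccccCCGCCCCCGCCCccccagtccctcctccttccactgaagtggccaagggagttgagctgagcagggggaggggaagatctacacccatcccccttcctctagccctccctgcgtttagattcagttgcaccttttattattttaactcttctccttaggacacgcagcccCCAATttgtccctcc
GABRB2: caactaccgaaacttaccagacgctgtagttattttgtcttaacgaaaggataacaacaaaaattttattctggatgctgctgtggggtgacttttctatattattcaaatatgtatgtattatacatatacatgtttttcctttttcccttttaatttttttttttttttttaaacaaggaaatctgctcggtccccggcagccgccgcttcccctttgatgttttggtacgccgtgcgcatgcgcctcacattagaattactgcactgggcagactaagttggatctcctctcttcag
CACNA2D1: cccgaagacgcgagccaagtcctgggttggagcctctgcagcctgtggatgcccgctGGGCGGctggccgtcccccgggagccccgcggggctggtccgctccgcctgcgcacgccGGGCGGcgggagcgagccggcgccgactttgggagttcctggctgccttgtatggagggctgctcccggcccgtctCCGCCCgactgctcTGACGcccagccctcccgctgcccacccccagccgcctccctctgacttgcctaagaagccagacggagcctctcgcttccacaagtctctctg
GRIA4: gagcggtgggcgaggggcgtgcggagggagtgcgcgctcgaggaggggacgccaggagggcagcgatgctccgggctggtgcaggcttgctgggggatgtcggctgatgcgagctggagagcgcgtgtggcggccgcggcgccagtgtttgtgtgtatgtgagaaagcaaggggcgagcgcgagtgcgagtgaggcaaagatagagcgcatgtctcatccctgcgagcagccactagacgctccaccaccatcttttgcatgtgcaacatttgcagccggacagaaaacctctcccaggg

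The windows differed in base composition. GC content was 42.0% at KCNK2 and 39.0% at GABRB2, against 70.7% at KCNK1 and 72.3% at CACNA2D1. The 10 overlapped member promoters had a median GC content of 71.0% and 28.5 CpG dinucleotides per window, the 126 other member promoters 64.8% and 18, and all 15842 protein-coding promoters 62.7% and 22. The 4099 protein-coding promoters that overlapped a listed RBBP4 region had medians of 65% and 27, so the CpG count of the 10 was close to theirs. The GC box was present in 7 of the 10, in 72.3% of all promoters that overlapped a listed RBBP4 region and in 58.5% of all promoters. The partial element TGACG was in 5 of the 10, in 39.4% of promoters overlapping a listed RBBP4 region and in 29.5% of all promoters. The CCAAT box was in 2 of the 10 and 36.4% of all promoters, and the E-box CATCTG in 1 of the 10 and 11.7% of all promoters. No motif searched was found in the GABRB2 and GRIA4 windows. The partial cores CAGCACC and GGACAGC of the element bound by REST, a repressor of neuronal genes, were in 0 of the 10, and in 7.71% and 6.91% of all promoters. With 10 windows these shares are descriptions only.

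At member starts, every listed RBBP4 region had more reads after knockdown. Of the members with a known start, 22 held 27 listed regions within 3000 bp of it, and 27 of 27 were higher. No member start held a lower region, against 1.06% of all genes with a known start. The knockdown library had 8 to 69 reads in these regions, against 0 to 13 reads in the control library. This direction was common to starts in general: 97.2% of the 5836 listed regions within 3000 bp of any protein-coding start were higher. Of the 27, 16 at 15 members passed an adjusted p of 0.05 by the authors' deposited table. Read per gene, 15 of 136 members (11%) had such a region at the start, against 28.6% of all 15842 genes with a known start. Members therefore showed the common direction at their starts but held a listed start region in a smaller share of genes, also without the p limit (16.2% of members and 34.6% of all genes).

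KCNK2 had the start region with the most reads, with 69 reads after knockdown against 13 in the control (3.66-fold, interval 2.01 to 7.22), at chr1:215004361-215005540. KCNK13, another 2-pore-domain channel gene, had 41 reads after knockdown against 7 in the control in a region that also lies at a neighbouring uncharacterised gene. KCNJ8 had 23 reads after knockdown against 3 in the control (5.29-fold, interval 1.6 to 27.5). These potassium channel genes had the start regions with the smallest p-values in the authors' deposited table. Potassium channel genes are also the largest family among the members. KCNK1 had 17 reads after knockdown against 1 in the control, KCND3, an A-type channel pore subunit, had 19 against 2, and KCNC4, another A-type pore subunit, had 10 against 0. Among the calcium channel genes CACNA2D1 had 27 reads after knockdown against 8 in the control (2.33-fold, interval 1.03 to 5.93) and CACNB3, a beta subunit that brings the pore to the membrane, had 24 against 6. CACNB1, a further beta subunit, had 13 against 1, in a region that also lies at RPL19. The receptor genes GABRB2, GABRA2, GRIN3A and GRIA4 had 15, 11, 19 and 18 reads after knockdown, against 1, 1, 4 and 4 in the control. No start region of the remaining 114 members with a known start was listed.

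**Figure D1:**
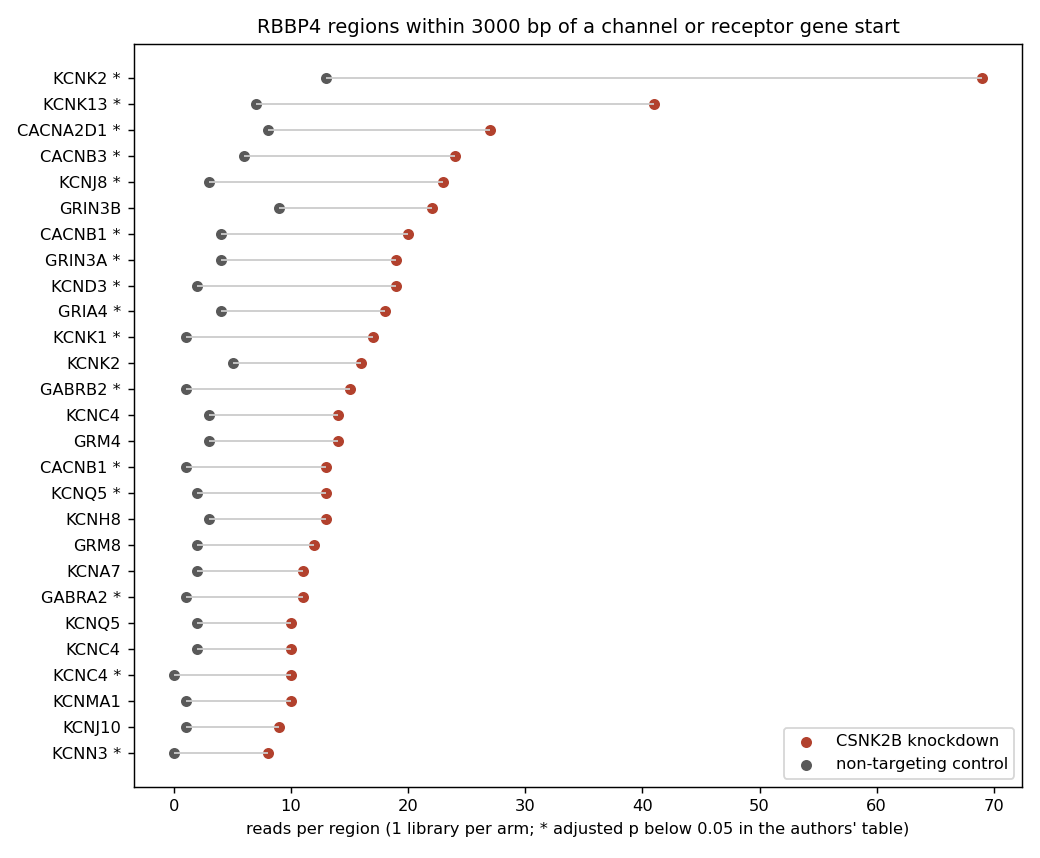
Reads per region (horizontal axis) in the knockdown and the control RBBP4 library for the 27 listed regions within 3000 bp of a member's start, 1 row per region and 1 library per arm. Every knockdown point lies to the right of its control point, from 8 against 0 reads at KCNN3 to 69 against 13 at KCNK2.

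Of 48 listed RBBP4 regions within 3000 bp of either end of a member, 46 were higher after knockdown. These 48 include all of the start regions above except the one at GRM4, so they are not a separate result. The matching share over the ends of all genes is not given here. Under an adjusted p of 0.05 by the authors' deposited table, 25 of 187 members (13.4%) had a higher region near an end, against 29.7% of all protein-coding genes. Among genes of at least 100 kb the shares were 14.8% of 81 members and 30.8% of 3356 genes. The share of members with any listed RBBP4 region, 50.8%, was close to the 51.6% of all genes.

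Away from starts the regions of channel and receptor genes were split between the directions. Over 3000 bp from any start, 171 of 309 RBBP4 member regions were higher after knockdown (55.3%, exact interval 49.6 to 61.0), against 69.2% higher among all 14375 listed gene regions at that distance. Over all 339 member regions 201 were higher (59.3%, interval 53.9 to 64.6), and 138 were lower, against 68.8% higher and 31.2% lower of all listed regions. Under an adjusted p of 0.05 by the authors' deposited table, 133 member regions at 61 genes were higher and 39 at 25 genes were lower, which is 39.2% and 11.5% of the member regions, against 48.3% and 8.94% of all listed regions. The 25 genes are 13.4% of members, against 5.6% of all genes, and among genes of at least 100 kb 29.6% of members, against 20.7%. Regions of 1 gene are not independent, since they share its chromatin and its copy number, and the intervals do not cover this.

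The 2 directions differed in depth. The median count over both libraries was 21 reads in higher member regions and 13 in lower ones. Among regions with at least 20 reads, 107 of 123 member regions were higher (87.0%), against 90.6% of all 16588 such regions. Among regions past 4-fold, 91 of 221 were higher (41.2%), against 49.6%. The number of reads or the size of the fold asked for therefore sets whether higher or lower regions are in the majority, and in each of these selections the members' share was below that of all regions. The plot of reads in both libraries shows the empty band around equal density that the p limit of the tables leaves.

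**Figure D2:**
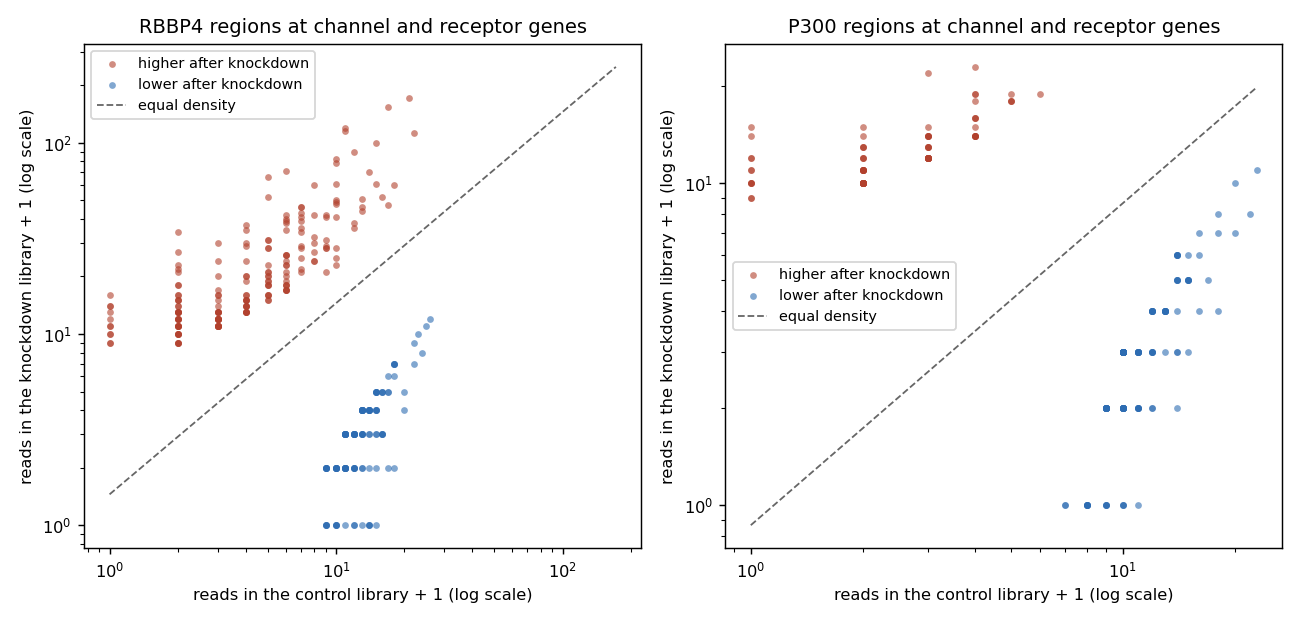
Reads plus 1 in the knockdown library (vertical axis, log scale) against reads plus 1 in the control library (horizontal axis, log scale) for the 339 RBBP4 and 249 P300 member regions, 1 point per region. Higher regions reach 171 knockdown reads for RBBP4, whereas no P300 region has over 32 reads in both libraries together, and the dashed line marks equal density after scaling to all tested regions.

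Among voltage-gated potassium channel pores, 42 RBBP4 regions were higher after knockdown and 27 lower, at 20 of 40 genes. KCND2, an A-type pore subunit of dendrites, had 9 higher and 2 lower regions along its gene. Its region with the smallest p, at chr7:120695788-120697165, had 81 reads after knockdown against 9 in the control (6.21-fold, interval 3.11 to 14.1). The 2 lower ones lay nearer the start, at 73.2 kb with 3 reads after knockdown against 12 in the control and at 148 kb with 0 against 13. KCNC2, a fast-closing channel of rapidly firing neurons, had 5 regions, all higher, with 59 reads after knockdown against 17 in the control at the one with the most reads. KCNH6, an ERG-type channel gene, had 40 reads after knockdown against 6 in the control in a region that also lies at DCAF7. The related genes KCNH1, KCNH3, KCNH5 and KCNH7 each had a lower region under an adjusted p of 0.05 by the authors' deposited table. KCNH3 also had a higher one under that limit, with 27 reads after knockdown against 9 in the control (2.07-fold, interval 0.945 to 5.00). At KCNH5 the reads were 1 after knockdown against 13 in the control, and at KCNH7 1 against 12. KCNH1 had such regions near its 3′ end, with 4 reads after knockdown against 19 in the control, and 22.8 kb from its start, with 0 against 8.

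Genes of auxiliary potassium channel subunits had 22 higher and 9 lower RBBP4 regions. KCNAB1, a cytoplasmic beta subunit that speeds inactivation, had 111 reads after knockdown against 21 in the control at chr3:156395716-156397481 (3.65-fold, interval 2.27 to 6.12). A lower region with 0 reads after knockdown against 10 in the control lay 5.15 kb from it, centre to centre. KCNIP4, a calcium-binding partner of A-type channels, had 10 higher and 4 lower regions. Its higher regions reached 33 reads after knockdown against 1 in the control and 45 against 6, at 1104 and 984 kb from the start. Both directions thus occurred within single genes of this class.

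Channels opened by intracellular calcium or sodium had 19 higher and 9 lower RBBP4 regions, with no lower region under an adjusted p of 0.05 by the authors' deposited table. KCNMA1, the pore of the large-conductance BK channel, had 10 higher and 4 lower regions. The one at chr10:76973200-76974502 had 119 reads after knockdown against 10 in the control (8.21-fold, interval 4.31 to 17.6), and its adjusted p in the authors' deposited table was 2.6e-14. KCNN1, a small-conductance channel gene, had 4 regions, all higher. They held 70, 15, 37 and 40 reads after knockdown, against 5, 2, 11 and 9 in the control, and the last also lies at ARRDC2. Inward rectifiers had few regions, 4 higher and 1 lower at 5 of 16 genes. KCNJ3, a G protein-gated channel subunit, had 29 reads after knockdown against 2 in the control (10.0-fold, interval 2.53 to 86.5) 10.8 kb from its start. The 2-pore-domain channels had 9 higher and 4 lower regions. Besides KCNK2 the leading gene was KCNK15, with 60 reads after knockdown against 9 in the control (4.60-fold, interval 2.27 to 10.5), and the only lower region under an adjusted p of 0.05 by the authors' deposited table was at KCNK10, with 2 reads after knockdown against 15 in the control.

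Calcium channel pores had 8 higher and 8 lower RBBP4 regions. CACNA1G, a T-type channel gene, had 51 reads after knockdown against 4 in the control in its single region (8.79-fold, interval 3.23 to 33.5), and CACNA1D, an L-type channel gene of endocrine cells, had 45 against 6 (5.17-fold, interval 2.2 to 14.8). CACNA1E, an R-type channel gene, and CACNA1A, a P/Q-type channel gene, held all 8 lower regions, of which none passed an adjusted p of 0.05 by the authors' deposited table. At the lower regions with the smallest p, CACNA1E had 1 read after knockdown against 10 in the control, and CACNA1A 4 against 14. Auxiliary calcium channel genes had 21 higher and 10 lower regions. CACNA2D1 and CACNA2D3 had both, and at CACNA2D1 the region 124 kb from the start had 49 reads after knockdown against 9 in the control, whereas the one at 342 kb had 1 against 17 (a ratio of 0.0406, interval 0.000971 to 0.259). CACNG2, the AMPA receptor partner stargazin, had 2 lower regions under an adjusted p of 0.05 by the authors' deposited table, with 1 read after knockdown against 11 in the control in each, and 2 higher regions above that limit.

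Sodium channel pores were among the classes with more lower than higher RBBP4 regions, 7 lower and 3 higher. SCN9A, the channel of pain-sensing neurons, had 2 lower regions with 0 reads after knockdown against 11 in the control in each. With a floor of 3 reads in place of 0 each was 5.32-fold lower, and the interval limit of the ratio was 0.275. SCN2A, a channel of the axon initial segment, had 2 reads after knockdown against 13 in the control 12.5 kb from its start, and 20 against 4 at 134 kb. SCN11A had 28 reads after knockdown against 8 in the control (2.41-fold, interval 1.07 to 6.13). Auxiliary sodium channel genes had 2 regions, both higher, and the one at SCN4B had 9 reads after knockdown against 0 in the control.

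**Figure D3:**
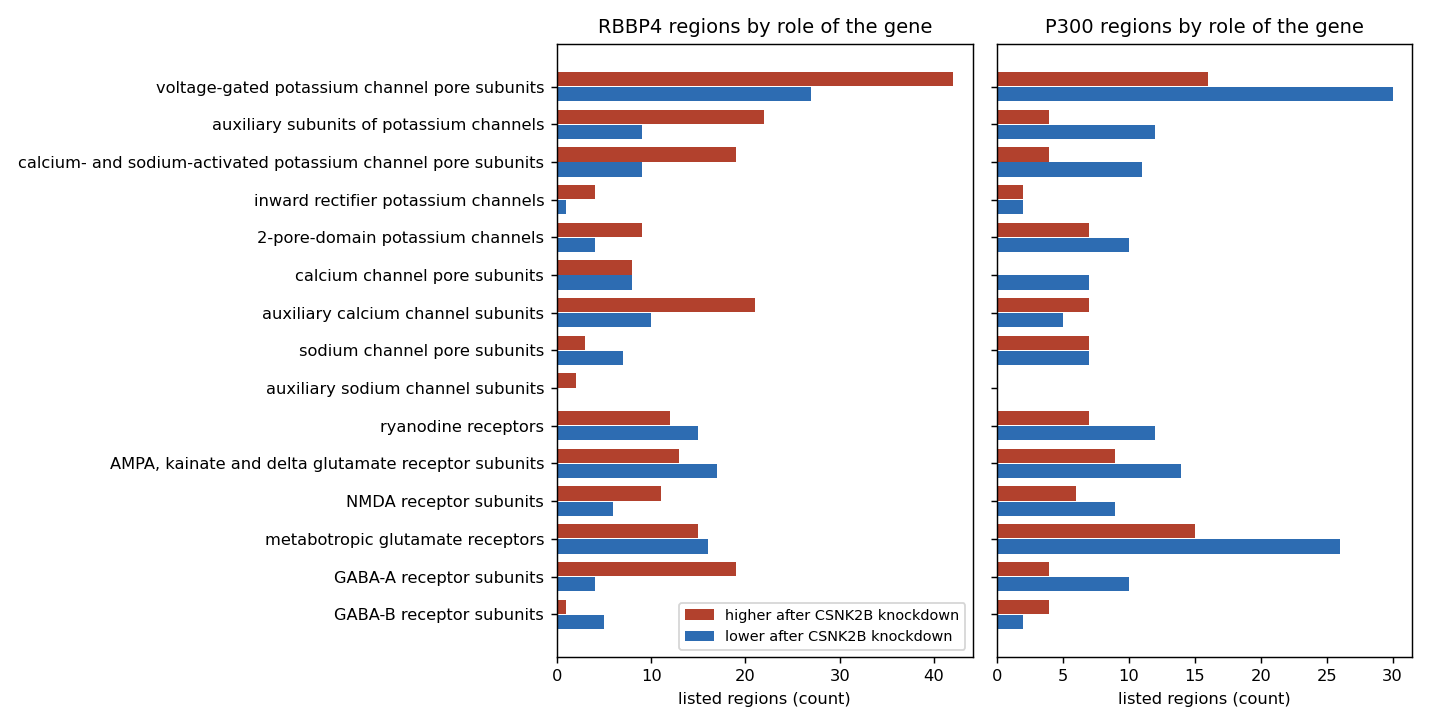
Number of listed regions (horizontal axis) higher and lower after CSNK2B knockdown for each role class of the member genes (vertical axis), with RBBP4 on the left and P300 on the right. For RBBP4 the higher bar is the longer one for voltage-gated potassium channel pores (42 against 27) and GABA-A receptor subunits (19 against 4), and for P300 the lower bar is the longer one for metabotropic glutamate receptors (26 against 15).

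The ryanodine receptors RYR2 and RYR3 differed in how their RBBP4 regions were split. RYR2, the cardiac form that is also the main neuronal one, had 10 higher and 5 lower regions. The region at chr1:237152012-237153632, 111 kb from the start, had 171 reads (87.3 RPKM) after knockdown against 20 (14.8 RPKM) in the control, a fold of 5.90 (interval 3.70 to 9.90) and the smallest adjusted p of all member regions in the authors' deposited table, 9.4e-16. A neighbour at 124 kb had 153 reads after knockdown against 16 in the control (6.6-fold, interval 3.93 to 11.8). The 6 regions within 133 kb of the start were all higher, with 27 to 171 reads after knockdown against 4 to 20 in the control. All 5 lower regions lay from 289 kb onwards, with 1 to 5 reads after knockdown against 12 to 16 in the control, interspersed with 4 higher ones. RYR3, a form with low levels in many tissues, had 10 lower regions and 2 higher. Its reads over all 12 regions summed to 39 after knockdown against 130 in the control, whereas those of RYR2 summed to 601 against 145. Under an adjusted p of 0.05 by the authors' deposited table, 5 of the RYR3 regions were lower and none was higher, and the one at chr15:33540378-33540852 had 1 read after knockdown against 16 in the control (a ratio of 0.0431, interval 0.00103 to 0.277). The sums are over regions chosen for their difference and carry no test. RYR1 had no listed RBBP4 region.

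AMPA, kainate and delta receptor genes had 13 higher and 17 lower RBBP4 regions at 11 of 12 genes. GRIA3, an AMPA receptor subunit, had 38 reads after knockdown against 6 in the control (4.37-fold, interval 1.83 to 12.6). GRIK4, a kainate receptor subunit, had 34 against 5 (4.69-fold, interval 1.82 to 15.4). GRIK2, another kainate subunit, had 0 reads after knockdown against 13 in the control (6.28-fold lower with a floor of 3 reads in place of 0, and a ratio of at most 0.226 by its interval). GRID1, a delta receptor gene, had 2 against 14. NMDA receptor genes had 11 higher and 6 lower regions, and 7 of the 11 were at GRIN3A, an NMDA subunit that lowers calcium entry. Over its 8 regions GRIN3A summed to 268 knockdown reads against 73 control reads, and only the region most distant from the start was lower, with 3 after knockdown against 14 in the control. GRIN2B, a subunit of early-life receptors, had 28 reads after knockdown against 3 in the control 350 kb from its start and 1 against 10 at 364 kb, a pair of opposite regions 13.6 kb apart.

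Metabotropic glutamate receptor genes had 15 higher and 16 lower RBBP4 regions, and the genes differed. GRM3, a receptor coupled to inhibition of adenylyl cyclase, had 4 higher regions 64.2 to 103 kb from the start and 2 lower ones further along. The higher regions held 99, 22, 114 and 16 reads after knockdown, against 14, 4, 10 and 2 in the control, and the lower ones 3 and 2 against 19 and 11. The region at chr7:86723470-86725292 reached 7.86-fold (interval 4.12 to 16.8). GRM7, a presynaptic receptor, had 5 regions, all lower, with 0 to 3 reads after knockdown against 8 to 13 in the control. GRM8, of the same group as GRM7, had higher regions at its start, 3.96 kb and 230 kb from it and at 793 kb near its far end. The 6 regions between 362 and 715 kb were lower, with 0 to 7 reads after knockdown against 8 to 23 in the control. The one at chr7:126537250-126537730 had the smallest adjusted p of the lower member regions in the authors' deposited table, 0.0024. It had 0 reads after knockdown against 14 in the control (6.77-fold lower with a floor of 3 reads in place of 0, and a ratio of at most 0.208 by its interval).

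GABA-A receptor genes were mostly higher, with 19 RBBP4 regions higher and 4 lower. GABRG3, a gamma subunit, had 5 higher regions 373 to 521 kb from its start. The leading one had 65 reads after knockdown against 4 in the control (11.2-fold, interval 4.17 to 42.4). GABRB2 had 8 higher regions from its start to 155 kb and 1 lower at 222 kb, and its 9 regions summed to 188 knockdown reads against 54 control reads. GABRG1 had 35 reads after knockdown against 6 in the control (4.02-fold, interval 1.67 to 11.7). The lower region at GABRB2 had 3 reads after knockdown against 12 in the control. GABBR2, a subunit of the G protein-coupled GABA-B receptor, went the other way, with 5 of 6 regions lower. The lower regions had 0 to 6 reads after knockdown against 11 to 17 in the control, and the single higher one had 17 against 1.

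**Figure D4:**
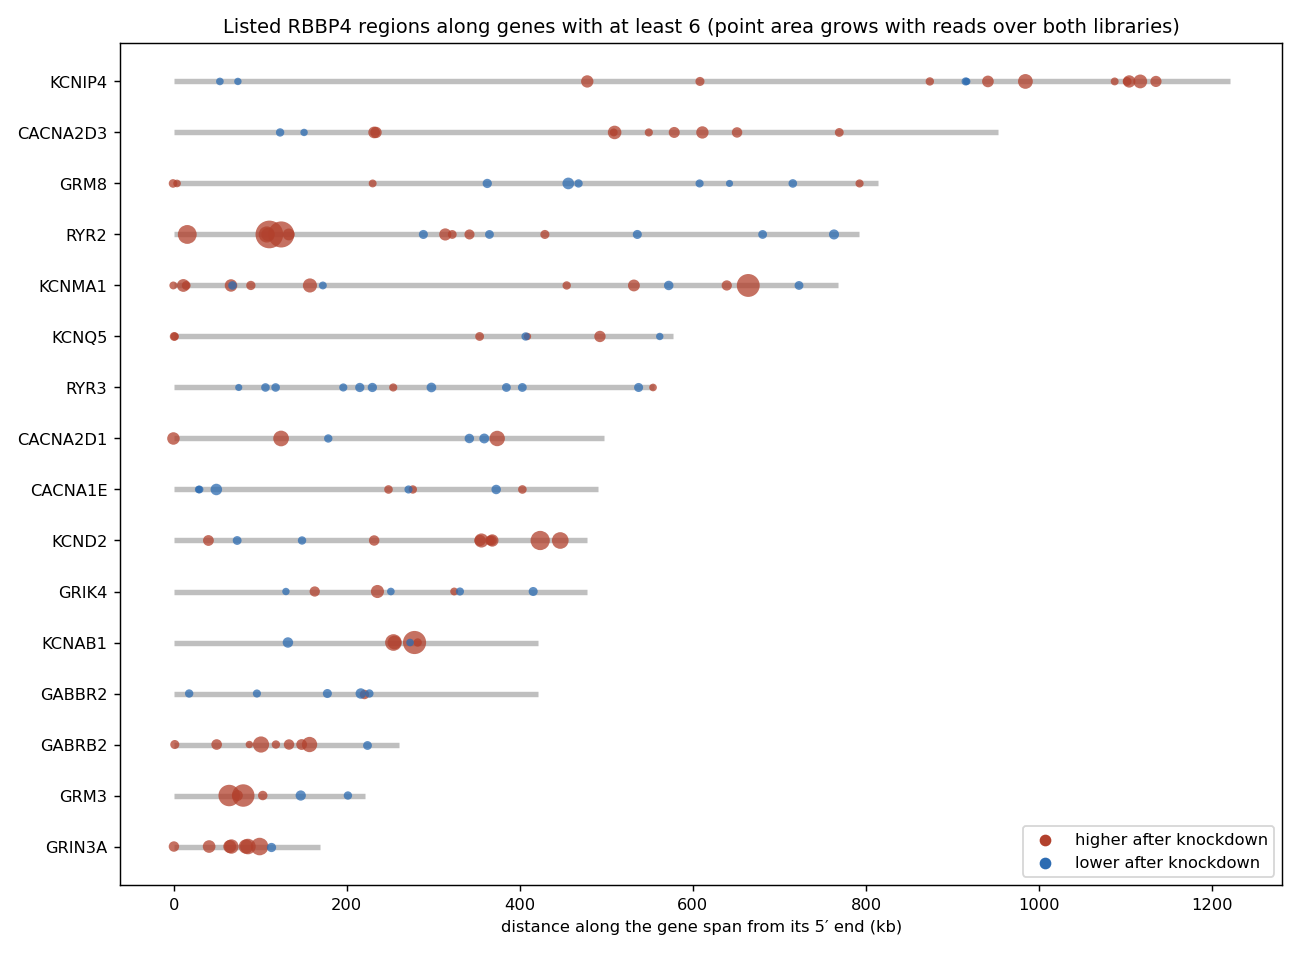
Position of each listed RBBP4 region (horizontal axis, kb from the 5′ end of the gene span) along the 16 members with at least 6 regions and a known strand, 1 row per gene. Point area grows with the reads over both libraries, and colour gives the direction. The large higher points of RYR2 lie within 133 kb of the start, and RYR3, GRM8 and GABBR2 carry mostly lower points.

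The 39 lower RBBP4 regions under an adjusted p of 0.05 by the authors' deposited table had few reads throughout. Reads ran 0 to 7 after knockdown (median 1) and 8 to 23 in the control (median 13), with 0 knockdown reads in 16. Only those at KCNG3 and KCNH1 lay within 3000 bp of an end of the gene, which is 1.07% of members, against 0.909% of all genes, and the median distance to the nearest end was 96.1 kb. KCNG3, a silent modifier subunit of voltage-gated potassium channels, had 6 reads after knockdown against 21 in the control in its region. CACNB4, a calcium channel beta subunit, and KCND3 each had 1 read after knockdown against 11 in the control. Of the 25 genes that held these 39 regions, 15 (60%) also held a higher region at that limit, against 58.3% of the 1122 such genes overall. Over all members with a region, 35 had higher regions only, 15 lower regions only and 45 both (47.4%), against 18.7% with both among all 10341 genes with a region. Among genes of at least 100 kb the shares with both were 68.3% of members and 45.9% of all. Under an adjusted p of 0.05 by the authors' deposited table these shares were 26.4% and 21.2%. Of such long genes with a lower region at that limit, 58.3% of members and 69.6% of all also held a higher one.

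The merged spans of members, with flanks, covered 33.8 Mb, against 1347 Mb for all protein-coding genes. RBBP4 regions were listed there at 10.0 per Mb, against 15 per Mb at all genes. Higher regions stood at 5.96 per Mb at members against 11.6 per Mb at all genes, while lower ones stood at 4.09 against 3.4 per Mb. The 92 members without a listed RBBP4 region had a median length of 29542.5 bp, against 172827 bp for the 95 with one. They included the L-type calcium channel gene CACNA1C, the brain potassium channel genes KCNA1 and KCNA2 and the glutamate receptor gene GRM5. For these the tables show only that no region there had an unadjusted p below 0.05.

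A pair of related gene groups was described in the same way for RBBP4. Of 64 other ion channel genes (HCN, chloride, transient receptor potential, acid-sensing, purinergic, nicotinic, glycine, serotonin and inositol trisphosphate receptor channels) 82 regions were listed, 64 higher and 18 lower, and 15 genes (23.4%) had a higher region near an end under an adjusted p of 0.05 by the authors' deposited table, against 13.4% of members and 29.7% of all genes. TRPM3, a heat-sensing cation channel, had 181 reads after knockdown against 21 in the control (5.94-fold, interval 3.77 to 9.84), and ITPR1, the inositol trisphosphate receptor, had 142 against 21. ASIC2, an acid-sensing channel, had 0 reads after knockdown against 11 in the control. Of 38 synaptic scaffold and channel-anchoring genes 134 regions were listed, 77 higher and 57 lower, and 5 genes (13.2%) had such an end region, below the same 29.7%. NLGN1, a postsynaptic adhesion protein, had 97 reads after knockdown against 15 in the control (4.46-fold, interval 2.58 to 8.28). GPHN, the gephyrin scaffold of inhibitory synapses, had 1 read after knockdown against 14 in the control in its lower region. The share of higher regions was 78.0% at other ion channels and 57.5% at synaptic scaffolds, against 59.3% at members and 68.8% overall.

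P300 regions at channel and receptor genes were mostly lower after knockdown, to about the extent seen over all regions. Of 249 member regions 157 were lower and 92 higher (36.9% higher, exact interval 30.9 to 43.3), against 65.3% lower and 34.7% higher of all 20496. The authors' deposited table held no P300 region past an adjusted p of 0.05, and the smallest at a member was 0.260, although every listed region had an unadjusted p below 0.05. Reads were few: both libraries together held 11 at the median region and at most 32. Of the 20 member regions with at least 20 reads 10 were higher (50%), against 32.9% of all 1430 such regions. Past 4-fold 91 of 164 were higher (55.5%), against 49.7% of all regions past 4-fold, so the majority direction at members depends on these limits. Lower P300 regions were listed at 63 of 187 members (33.7%), against 17.7% of all genes, and higher ones at 51 (27.3%), against 11.5%. Among genes of at least 100 kb the lower shares were 61.7% of members and 57.6% of all, and the higher shares 49.4% and 39.5%. Regions per Mb were 7.38 at members and 6.80 at all genes, and the gap per length was smaller than that per gene.

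P300 regions lay mostly away from the ends of the genes, with 12 of 249 within 3000 bp of an end, 4 higher and 8 lower. The 2 within 3000 bp of a member's start were at KCNH1, with 2 reads after knockdown against 10 in the control, and at SCN11A, with 13 against 3 in a region that also lies at WDR48. Of the 136 members with a known start, 1 thus had a higher and 1 a lower P300 region there (0.735% each), against 1.5% and 2.03% of all genes with a known start. In the potassium channel classes the regions were 16 higher and 30 lower for voltage-gated pores, 4 and 12 for auxiliary subunits and 4 and 11 for pores opened by calcium or sodium. KCNMA1 had 6 P300 regions, all lower, with 0 to 4 reads after knockdown against 7 to 13 in the control, in a gene where 10 of 14 RBBP4 regions were higher. KCNN2, a small-conductance channel gene, had 4 higher and 1 lower. The reads at its leading pair were 22 after knockdown against 3 in the control (8.47-fold, interval 2.54 to 44.2) and 3 against 17 (a ratio of 0.204, interval 0.0383 to 0.704). KCNIP1, a partner of A-type channels, had 13 reads after knockdown against 0 in the control (5.00-fold higher with a floor of 3 reads in place of 0, and a ratio of at least 3.52 by its interval). KCNK2 had 6 lower P300 regions and 1 higher, and its RBBP4 regions were 2 higher, both at its start, and 1 lower. Lower was also the more common direction of all P300 regions, and higher that of RBBP4 regions at starts in general. At KCNJ9, a G protein-gated channel gene, 14 reads after knockdown against 0 in the control lay in a region shared with IGSF8. KCNJ12, where the value was 2 against 10, has a near-identical copy, so its reads are uncertain.

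Calcium channel pores had 7 P300 regions, all lower. CACNA1E held 5 of them, with 1 to 4 reads after knockdown against 8 to 13 in the control. Auxiliary calcium channel genes had 7 higher and 5 lower, with 12 reads after knockdown against 1 in the control at CACNB2 and 1 against 9 at CACNB4. Sodium channel pores had 7 higher and 7 lower, and SCN2A held a region with 11 reads after knockdown against 0 in the control 124 kb from its start and one with 4 against 14 at 62.5 kb. Metabotropic glutamate receptor genes had the most P300 regions of the receptor classes, 15 higher and 26 lower. GRM5, a receptor that acts through phospholipase C, had the smallest unadjusted p of all member regions in the authors' deposited table, 0.00024, at chr11:88602918-88603542, with 21 reads after knockdown against 2 in the control (12.1-fold, interval 2.96 to 107). GRM8 had 5 higher and 11 lower regions and GRM7 5 and 8. At GRM7 the lower region with the smallest p had 0 reads after knockdown against 10 in the control. This was 2.89-fold lower with a floor of 3 reads in place of 0, and the ratio was at most 0.515 by its interval. GRIN2B had 2 higher and 7 lower. GABA-A receptor genes had 4 higher and 10 lower, with 0 reads after knockdown against 9 in the control at GABRG3. GABBR2 had 4 higher and 2 lower P300 regions, where its RBBP4 regions were 1 higher and 5 lower. These sets of counts at 1 gene come from regions that, as described next, seldom overlap.

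**Figure D5:**
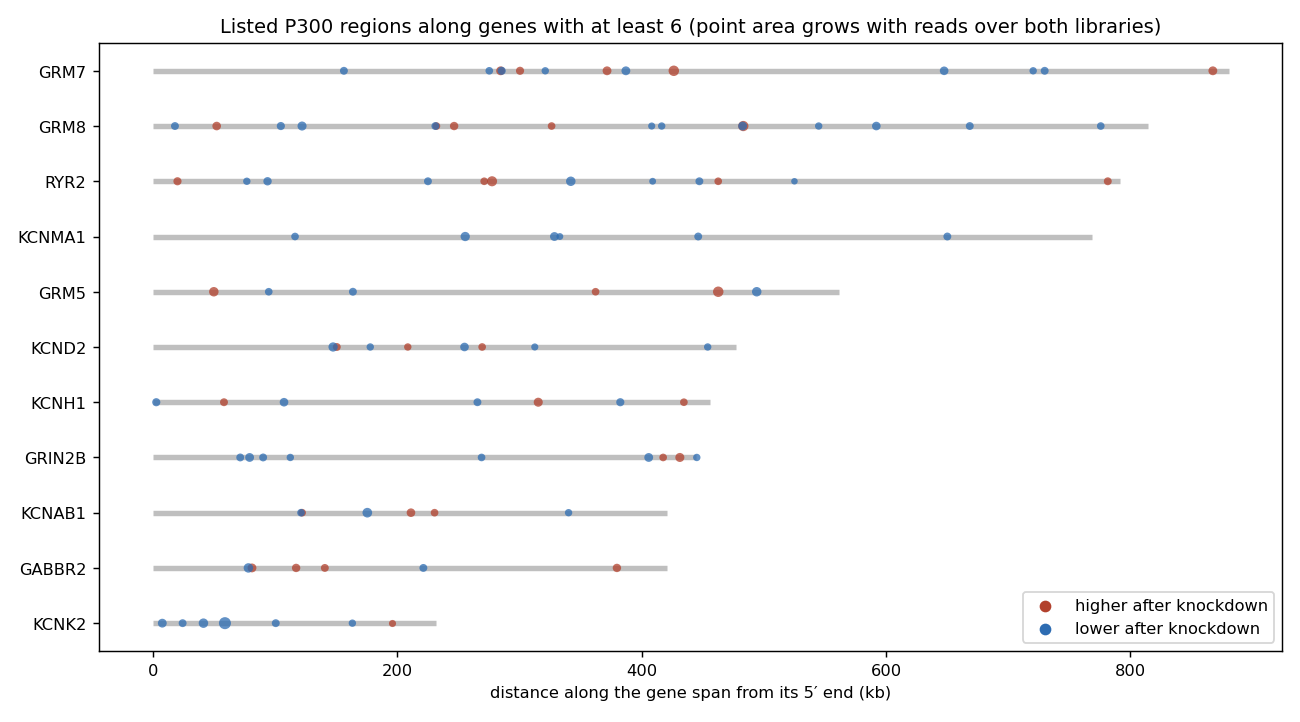
Position of each listed P300 region (horizontal axis, kb from the 5′ end of the gene span) along the 11 members with at least 6 regions and a known strand, 1 row per gene. Point area grows with the reads over both libraries, and colour gives the direction. All 6 points of KCNMA1 are lower, and lower and higher points are mixed along GRM7, GRM8 and RYR2.

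Regions of the 2 antibodies overlapped by at least 1 bp at 3 of 249 member P300 regions (1.2%), against 317 of 20496 of all P300 regions (1.55%), and the 3 are 0.885% of the 339 member RBBP4 regions. At GRIN3A both antibodies were higher after knockdown: P300 had 18 reads after knockdown against 3 in the control (6.93-fold, interval 2.02 to 36.7) and RBBP4 had 60 against 14 (2.96-fold). At RYR2, chr1:237384018-237384540 for P300, P300 had 4 reads after knockdown against 14 in the control, while RBBP4 had 20 against 1. At SCN9A P300 had 11 reads after knockdown against 2 in the control, while RBBP4 had 0 against 11. The antibodies thus had the same direction at 1 shared region and opposite directions at 2.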

How the data were processed

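Chromatin from NCI-H69 cells was immunoprecipitated with antibodies against RBBP4 and P300, with 1 library per antibody and arm, and read as paired 150 bp reads. The submitters' processing notes name Bowtie2 2.4.5, DiffBind 3.4.11, MACS2 2.2.7.1, ChIPseeker 1.28.3, Trim Galore 0.6.7, FastQC and the build GRCh38, with no role for each. The authors deposited RPKM values of the knockdown and control libraries per region. Per the file headers, the same tables give a log2 fold change, a mean log2 level, a p-value and an adjusted p-value, all computed by the authors. No column of another sample was present, and inputs were not used.

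RPKM times width was a whole number of reads (tolerance 0.01) in 98.3% of RBBP4 and 99.4% of P300 regions, and a width was solved for the others, which include 3 RBBP4 member regions. The total behind RPKM was inferred as the reads in all tested regions and was not checked. Direction followed the sign of the deposited log2 fold change. Folds are read ratios scaled to these totals, with exact binomial 95% intervals and 0 replaced by a floor of 3 reads per library. The reads of the other library are then taken as fixed, so such a fold is not a bound and can lie above the interval's own limit. The log2 ratio used for limits of 4-fold and for the alternatives had a pseudocount of 1 RPKM, which understates the change of low regions. Intervals and floors cover counting error only.

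Regions were assigned to gene spans of RefSeq, GRCh38.p14, extended by 3000 bp. Exons and introns were not in the annotation used here. Of the member regions 10 for RBBP4 and 5 for P300 also lay at another gene, and 1 P300 region belonged to 2 members. The members, role classes, related gene lists and motifs were chosen with earlier results of these data known. Named genes were, per role class and direction, the 2 members (P300: 1) with the smallest p in the authors' deposited table, every member with a lower RBBP4 region at an adjusted p below 0.05, and every member where both antibodies overlapped, a few of which are not reported here. The other genes named, among them those with a start region, with 5 or more regions or with no region, and the promoters shown were chosen after their values were seen. Alternatives were the flank, the overlap, read, p and fold limits, the scaling, the pseudocount and leaving out auxiliary subunits. The recovery of reads and the intervals were tested on simulated data. Analyses used Python 3.11.15, pandas 2.3.3, numpy 2.4.6, scipy 1.17.1 and matplotlib 3.10.9.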

Additional observations from a re-analysis of the deposited data

Results flagged for a closer look

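At 2 of the 3 member regions shared by both antibodies the directions were opposite. In the authors' deposited table the RYR2 region had a log2 fold change of -2.01 for P300 and 4.20 for RBBP4. The SCN9A region had 2.16 for P300 and -6.45 for RBBP4, the last on 0 reads after knockdown against 11 in the control. Each value rests on 1 library per arm, and the difference between the antibodies was not tested. The P300 values had adjusted p-values of 0.260 at RYR2 and 0.293 at SCN9A in the authors' deposited table.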

How the results depend on the processing

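The share of higher regions kept its value within its own interval under other flanks, a stricter overlap, the deposited RPKM ratio, members without auxiliary subunits and limits of 2-fold with either pseudocount, at 56.7% to 59.3% for RBBP4 and 36.7% to 37.4% for P300. Limits on reads and fold moved it. With at least 20 reads it was 87.0% for RBBP4 and 50% for P300, and past 4-fold it was 41.2% and 55.5%. The 25 members with a higher RBBP4 region near an end at an adjusted p below 0.05 became 10 at 0.01 and 15 with at least 20 reads, and 23 with a 1000 bp flank. The 25 members with a lower RBBP4 region became 7 at 0.01 and 4 with at least 20 reads, as fewer regions pass. The 63 members with a lower P300 region became 17 at an unadjusted p below 0.01. No share of all genes is given at these limits, so the counts do not show whether members still differed from all genes. RBBP4 regions passing the adjusted limit also fell over the whole series, from 20131 at 0.05 to 10500 at 0.01, and from 172 to 81 at members. The share higher among them went from 84.4% to 97.9% over the series and from 77.3% to 91.4% at members. The log2 ratio of the 105 named regions stayed within its counting interval with a pseudocount of 0.1 and under the authors' scaling. These settings were chosen after seeing the data. They say nothing about direction, because a pseudocount cannot change the sign and direction was defined by the authors' log2 fold change. No paired analysis was possible because each antibody and arm had 1 library, and for the same reason no replicate could be left out. Depth limits the lower RBBP4 regions and most P300 regions, which had a median of 13 and 11 reads over both libraries.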
